A study of Homo sapiens with 46 samples.

Results

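The collagen chain genes were taken as every gene whose symbol is COL, a number, A and a number with nothing after it. The rule found 44 of the 60668 gene identifiers in the count tables, 60340 of which carried a symbol. Events of these genes made up 379 of 179118 splicing events in the table of the 200 nM experiment, 259 of 139012 at 50 nM, 750 of 218608 in the siRNA experiment and 300 of 138022 in the xenografts. The rule uses symbols alone.

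Collagens are extracellular matrix proteins built of 3 chains wound into a triple helix. Each chain carries long runs of Gly-X-Y repeats, because glycine is the residue small enough for the core of the helix, and in the fibrillar genes the exons of the helix commonly hold whole repeats. Fibrillar chains build the fibrils of connective tissue, type IV chains the network of basement membranes, type VI chains beaded filaments around cells, and the FACIT chains decorate fibrils, while transmembrane collagens stay anchored in the plasma membrane. Tumour cells and fibroblasts both make collagen, so the set of chains differs from one cell source to the next.

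The study lowered the splicing factor TRA2B, an RNA-binding protein that binds exonic AGAA-rich elements and promotes inclusion of many exons, and sequenced polyadenylated RNA. MDA-MB-231, a breast carcinoma line, and U87MG, a glioblastoma line, were transfected with ASO-1570, an antisense oligonucleotide, or with a control ASO at 200 nM or at 50 nM, or with an siRNA to TRA2B or a control siRNA at 10 nM, and RNA was taken after 48 h, with 3 libraries in each of the 12 cell line groups. Breast tumours of 1 patient-derived xenograft model, grown in mice that the labels call immunocompetent, received ASO-1570 or control ASO into the tumour at 50 mg/kg 3 times a week for 4 weeks, with 5 libraries in each group. Each line is a single established line, no genotype was varied, and no group was left untransfected or uninjected. Nothing in the labels says whether the libraries of a line came from separate cultures, so the p-values measure the spread between these libraries, which may be technical.

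Library totals, in units of 1000000 counts, ran from 259.9 to 356.8 at 200 nM, from 78.56 to 112.8 at 50 nM, from 74.98 to 111.1 in the siRNA experiment and from 75.34 to 109.6 in the xenografts. TRA2B, the targeted gene, lay lower in every treated line library than in its controls. With 200 nM ASO-1570, MDA-MB-231 held 103.793 to 116.484 counts of it per 1000000 counts of the TMM-normalised library size (CPM) against 192.31 to 206.401, and U87MG held 75.6796 to 77.477 against 150.622 to 160.675. With siRNA it stood at 21.3679 to 22.7265 against 186.109 to 196.402 in MDA-MB-231 and at 22.1619 to 28.0998 against 174.212 to 185.508 in U87MG. In the xenografts the TRA2B ranges overlapped, at 77.74 to 113.904 CPM under ASO-1570 and 78.323 to 130.125 under control ASO (log2 change -0.16, adjusted p = 0.707). The cell type label of the MDA-MB-231 samples at 50 nM and with siRNA reads glioblastoma, against their line label, while 9 breast epithelial markers summed to 1141 to 1461 CPM there at 50 nM and to 1286 to 1375 with siRNA. CPM on this scale were 0.943 to 1.05 times plain counts per 1000000 in the lines and 0.687 to 2.29 times in the xenografts. Mitochondrial genes took 1.735% to 3.161% of counts in the lines and 17.65% to 75.31% in the xenografts, where 3 treated libraries and 1 control library were over 50%.

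The breast and glioblastoma lines made different collagens. Divided by gene length and summed over the chains, the control MDA-MB-231 signal at 200 nM was led by COL5A1, a minor fibrillar chain, with 28.4% of the summed CPM per kb, then COL18A1, the precursor of endostatin, with 14.7%, and COL6A1 with 12.2%. In control U87MG the chains of type VI led, COL6A2 with 31.2%, COL6A1 with 26.3% and COL6A3 with 17.2%, followed by both chains of type I, COL1A2 with 6.06% and COL1A1 with 4.32%. The basement membrane chains COL4A1 and COL4A2 were higher in the breast line. COL4A1 averaged 74.8 CPM in control MDA-MB-231 and 0.108 in control U87MG, and COL4A2 averaged 243 and 13.3. COL15A1, a chain of basement membrane zones, went the other way, at 2.09 to 2.89 CPM in control MDA-MB-231 and 30.9 to 33.1 in control U87MG. COL18A1 averaged 287 CPM against 0.0279.

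Of the 41 chain genes that passed the filter on low counts at 200 nM, 20 were called higher and 14 lower in control U87MG than in control MDA-MB-231, where 35.4% of all genes tested were called higher and 32.7% lower (edgeR quasi-likelihood test, Benjamini-Hochberg adjusted p under 0.05, as for every call on counts below). Among the 50 nM libraries 21 were higher and 13 lower of 36 (36.2% and 36.8% of all genes), and among the siRNA libraries 22 and 14 of 37 (40.1% and 37.2%). The shares lower were near those of all genes and the shares higher above them. COL8A1, a short chain network collagen, was at 90.8 CPM in U87MG and 87.8 in MDA-MB-231 and was not called at 200 nM. Across all 12 line groups 16 of the 44 genes stayed under 1 CPM and 22 reached 10 CPM in some group. Summed over the 44 genes, collagens took 0.2105% to 0.227% of counts in control MDA-MB-231 at 200 nM and 0.4006% to 0.4451% in control U87MG.

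**Figure D1:**
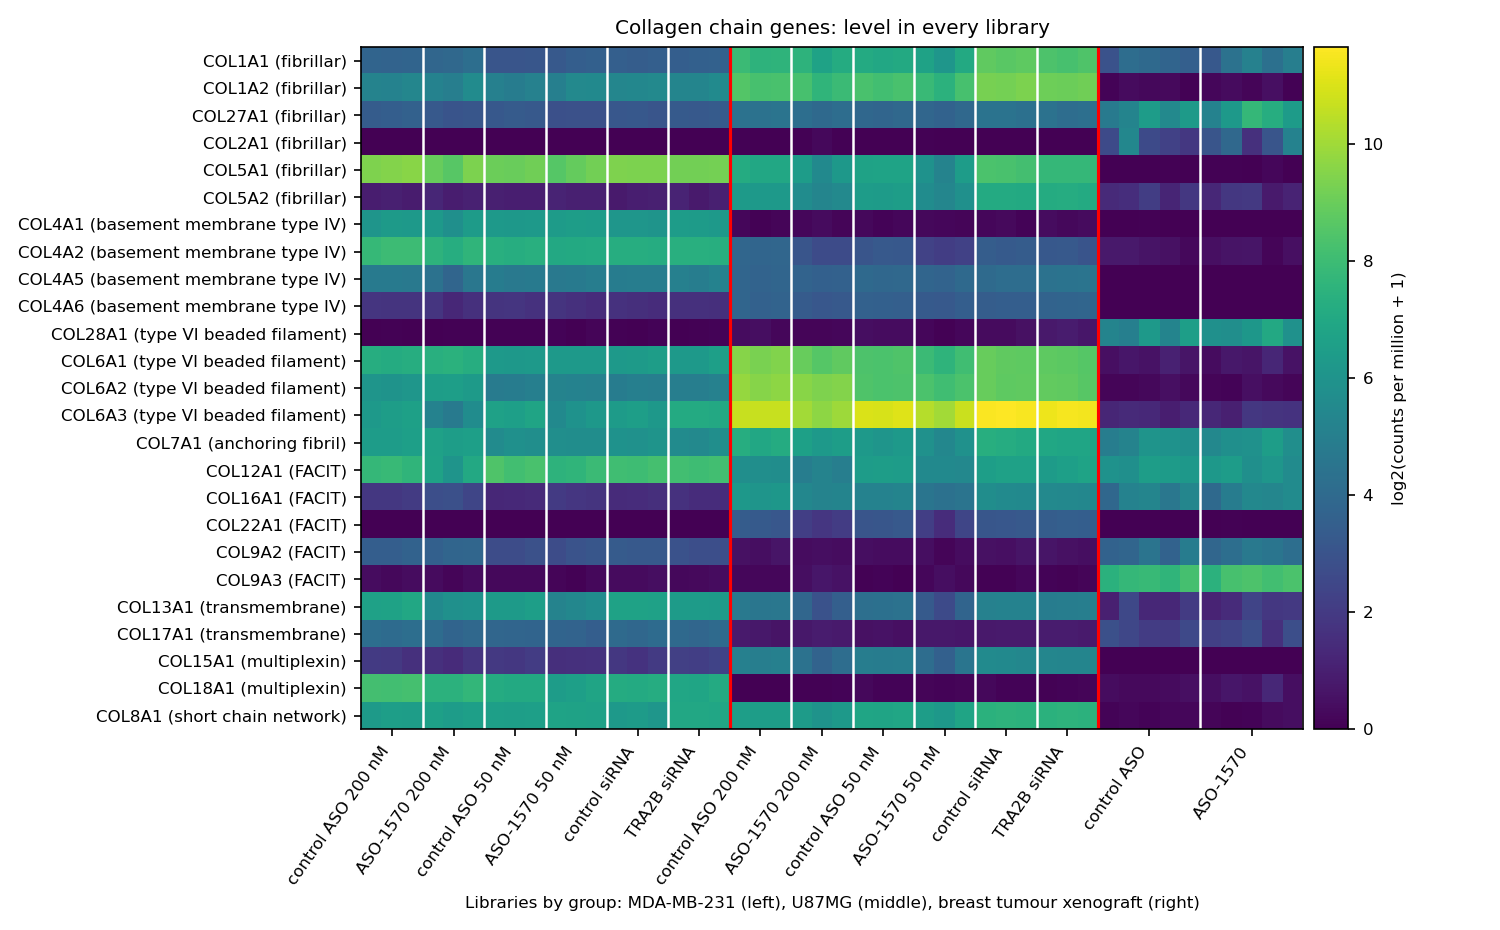
Level of the collagen genes that reached 10 CPM in some group, in every library, as log2(CPM + 1) by colour; rows are genes with their structural class, columns are libraries, white lines part the groups and red lines part MDA-MB-231, U87MG and the xenografts. COL4A1 and COL18A1 are bright in MDA-MB-231 and dark in U87MG (74.8 and 287 CPM against 0.108 and 0.0279 in the 200 nM controls), the type VI and type I chains are brighter in U87MG than in MDA-MB-231, and COL9A3 is bright in the xenografts.

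More collagen genes fell than rose in U87MG with ASO-1570. At 200 nM in U87MG, 17 of the 41 tested chain genes fell and 4 rose, while 23.9% of all genes tested fell and 25.8% rose. The median log2 change of the tested chain genes was -0.397 (all genes, 0.0203). By class, 4 of 11 fibrillar genes fell and 1 rose, 3 of 6 type IV genes fell, 2 of 6 in the type VI class fell, 4 of 10 FACIT genes fell and 2 rose, and COL7A1, the sole anchoring fibril chain, fell. At 50 nM 13 of 36 fell and 4 rose in U87MG (26.7% and 27.9% of all genes), with a median of -0.33 (all genes, 0.00316). The genes called lower at both doses numbered 12, which is 70.6% of the 17 and 92.3% of the 13. The overlap between doses over all genes was not computed, so this agreement cannot be set against a background.

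In MDA-MB-231 the calls were fewer and ran both ways. At 200 nM 6 of 41 chain genes fell and 5 rose (13.6% and 11.7% of all genes), with a median log2 change of 0.0625 (all genes, 0), and at 50 nM 6 of 36 fell and 5 rose (13.2% and 10.1%). These shares lie near the background of each comparison. Among the chain genes with a group mean of at least 10 CPM, fewer rose. In MDA-MB-231 6 of 17 fell and 1 rose at 200 nM, and 5 of 14 fell and 1 rose at 50 nM. In U87MG 14 of 17 fell and 0 rose at 200 nM, and 10 of 16 fell and 0 rose at 50 nM. The shares of all genes at that level were not computed. Over all chain genes tested, the 6 that fell were the same at both doses: COL12A1, COL13A1, COL18A1, COL27A1, COL4A2 and COL6A3. Here too the overlap over all genes was not computed. The collagen share of counts was 0.1531% to 0.2% with ASO-1570 against 0.2105% to 0.227% in MDA-MB-231 at 200 nM, and 0.2687% to 0.3427% against 0.4006% to 0.4451% in U87MG. Fewer cells making a chain and less RNA per cell cannot be told apart in these bulk libraries.

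**Figure D2:**
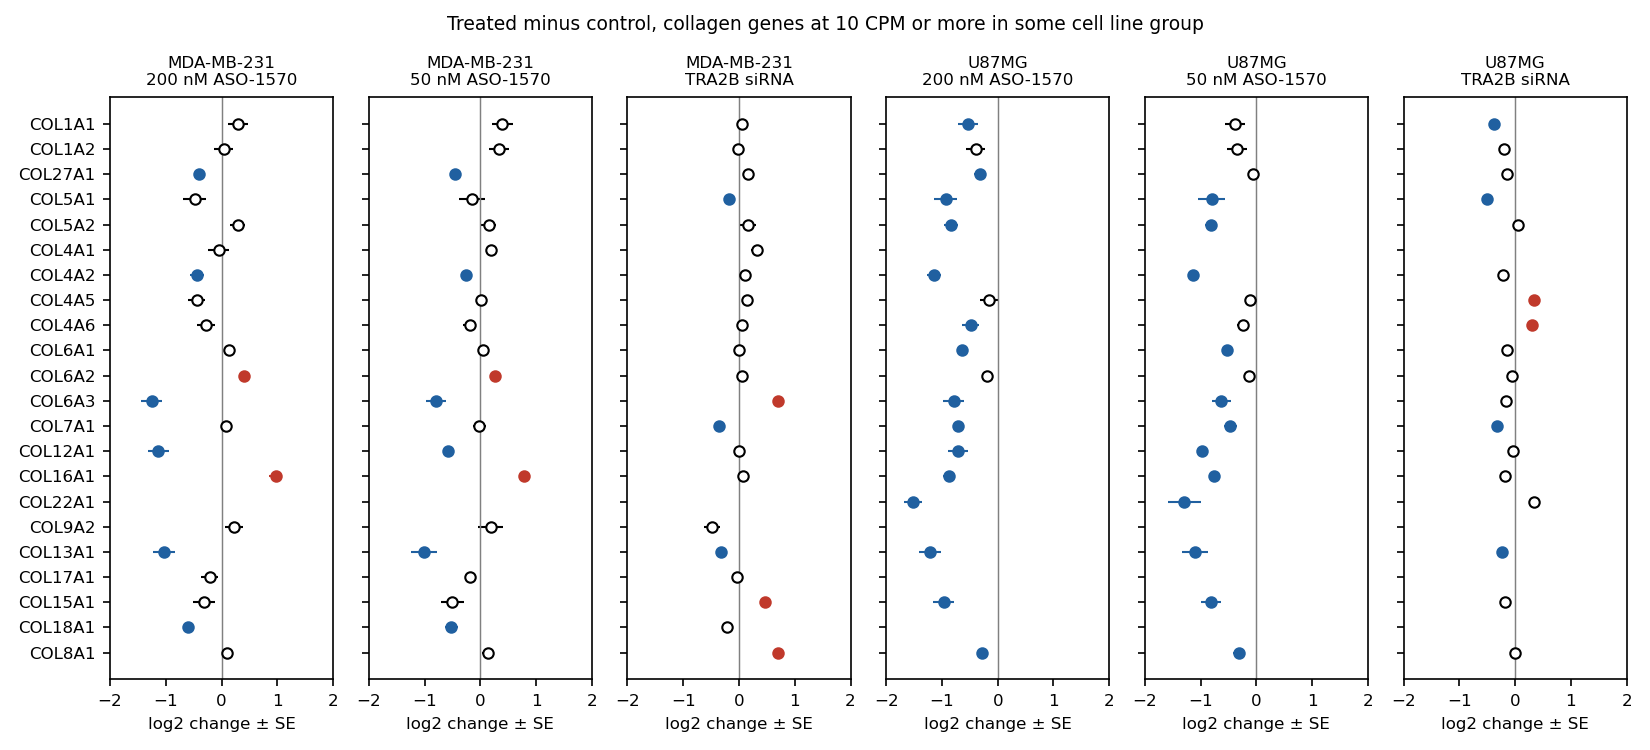
Log2 change, treated minus control, with its standard error (edgeR), of the collagen genes at 10 CPM or more in some line group. Each comparison has 1 panel, with 3 against 3 libraries. Blue points were called lower, red points higher and open points not called. A gene with no point was not tested or averaged under 1 CPM in both groups of that comparison. COL13A1 is blue in all 6 panels, and COL16A1 is red in the MDA-MB-231 ASO panels and blue in the U87MG ones.

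COL13A1, a transmembrane collagen of cell contacts, fell in all 6 line comparisons (ENSG00000197467, chr10:69801867-69964275, plus strand, GRCh38). In MDA-MB-231 at 200 nM replicates 1 to 3 read 46, 57.3 and 59.9 CPM with ASO-1570 and 101, 106 and 125 with control ASO, a log2 change of -1.03 (SE 0.199, adjusted p = 0.00306). In U87MG they read 13.6, 6.64 and 10.6 against 25.1, 22.9 and 23.7 (-1.22, SE 0.201, adjusted p = 0.00032). Every treated library lay below every control library. At 50 nM the log2 change was -1.01 (SE 0.23) in MDA-MB-231 and -1.11 (SE 0.237) in U87MG, again with no overlap. The siRNA gave smaller changes from tight groups: 83.2, 83.3 and 81.4 CPM against 104, 105 and 102 in MDA-MB-231 (-0.33, SE 0.0316, adjusted p = 0.000167) and 29, 29.5 and 31 against 34.2, 35.3 and 35.3 in U87MG (-0.23, SE 0.0323, adjusted p = 0.00321).

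COL12A1, a FACIT chain that binds the surface of type I fibrils, fell with the ASO in both lines and showed no call with siRNA (ENSG00000111799, chr6:75084326-75206051, minus strand). Libraries of MDA-MB-231 at 200 nM read 104, 64.5 and 129 CPM with ASO-1570 and 217, 234 and 200 with control (-1.13, SE 0.186, adjusted p = 0.00116). In U87MG at 50 nM they read 45.4, 45.5 and 42.8 against 85.7, 88.5 and 87.4 (-0.97, SE 0.102, adjusted p = 1.24e-05). All treated libraries lay below all controls in both. The change was -0.71 (SE 0.185) in U87MG at 200 nM and -0.57 (SE 0.0997) in MDA-MB-231 at 50 nM. With siRNA MDA-MB-231 read 280, 265 and 284 CPM against 267, 265 and 297, and U87MG 84.9, 95.9 and 109 against 93.3, 102 and 101, so the groups overlapped in each line.

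The 3 main type VI chains, which assemble into 1 heterotrimer, did not move together. COL6A3, the largest of them (ENSG00000163359, chr2:237324003-237414375, minus strand), read 35.2, 25.8 and 50.2 CPM against 77.9, 90.1 and 96.9 in MDA-MB-231 at 200 nM (-1.25, SE 0.191, adjusted p = 0.000747). In U87MG it read 1064, 810 and 1002 against 1666, 1645 and 1671 (-0.79, SE 0.189, adjusted p = 0.00395), and the groups did not overlap in either line. At 50 nM the log2 changes were -0.79 (SE 0.179) and -0.63 (SE 0.176), both called. COL6A1 in U87MG at 200 nM read 492, 386 and 445 CPM against 745, 632 and 694 (-0.65, SE 0.0912, adjusted p = 9.68e-05), while in MDA-MB-231 it read 162, 175 and 155 against 151, 143 and 151 (0.14, adjusted p = 0.293). COL6A2, its neighbour on chromosome 21, read 87.8, 92.7 and 82.1 CPM against 66, 63.4 and 69 in MDA-MB-231 (0.40, SE 0.0781, adjusted p = 0.00304) and was not called in U87MG (-0.19, adjusted p = 0.0582). The rise of COL6A2 in MDA-MB-231 at 50 nM, 36.4, 35.1 and 33.8 CPM against 27.6, 28.4 and 31.5 (0.27, adjusted p = 0.02), lost its call without replicate 1 or 2 of either group (adjusted p = 0.0784 and 0.0628 without the treated replicates, 0.0831 and 0.0793 without the control replicates).

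Among fibrillar chains the U87MG decreases took in COL5A1, COL5A2 and COL1A1. COL5A1, of the type V chains that limit fibril width, read 87.3, 46.1 and 72.6 CPM against 143, 125 and 126 in U87MG at 200 nM (-0.93, SE 0.209, adjusted p = 0.00264). COL5A2, its partner chain, read 50.3, 38.5 and 43.7 against 81.8, 77.8 and 78 (-0.84, SE 0.124, adjusted p = 0.000138). The treated and control libraries were separate for both. At 50 nM COL5A1 changed by -0.80 (SE 0.237, adjusted p = 0.0129) and COL5A2 by -0.81 (SE 0.106, adjusted p = 5.95e-05). COL1A1, the major chain of type I, read 184, 103 and 145 CPM against 248, 184 and 192 at 200 nM (-0.53, SE 0.178, adjusted p = 0.0258), with treated replicate 1 just under the lowest control. Its partner COL1A2 was not called in any treatment comparison, with 309, 196 and 249 CPM against 375, 304 and 315 here (-0.40, adjusted p = 0.0734). In MDA-MB-231 COL5A1 read 501, 401 and 662 CPM against 676, 726 and 775, a wide treated group (-0.48, adjusted p = 0.115). COL27A1, a fibrillar chain of cartilage, was at 8.46, 7.18 and 7.84 CPM against 9.52, 10.3 and 11.3 in MDA-MB-231 at 200 nM (-0.41, SE 0.0971, adjusted p = 0.00974) and fell by 0.45 on the log2 scale at 50 nM (SE 0.0845).

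COL4A1 and COL4A2, the basement membrane pair transcribed head to head on chromosome 13, parted in MDA-MB-231. COL4A2 read 186, 151 and 199 CPM with ASO-1570 and 224, 253 and 252 with control at 200 nM (-0.45, SE 0.126, adjusted p = 0.022). That call was lost without treated replicate 2 (adjusted p = 0.0568) or without control replicate 2 or 3 (0.0774 and 0.0687), and the 50 nM change was smaller (129, 136 and 138 against 163, 154 and 162 CPM, -0.25, SE 0.0598, adjusted p = 0.0108). COL4A1 was not called in any treatment comparison, and a test of the difference between the genes was not made. In U87MG COL4A2 fell further, from 13.6, 13 and 13.3 CPM to 7.38, 5.38 and 5.36 at 200 nM (-1.14, SE 0.129, adjusted p = 1.99e-05) and by the same log2 change at 50 nM (SE 0.068, adjusted p = 4.49e-07). The difference between lines in the COL4A2 change was 0.69 at 200 nM (adjusted p = 0.0153) and 0.89 at 50 nM (SE 0.0904, adjusted p = 0.000141).

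COL16A1, a FACIT chain found with fibrils and microfibrils, changed in opposite directions in the lines (ENSG00000084636, chr1:31652247-31704319, minus strand). In U87MG at 200 nM it read 41, 36.7 and 37.1 CPM with ASO-1570 and 73, 66.2 and 70.9 with control (-0.87, SE 0.112, adjusted p = 4.78e-05). In MDA-MB-231, where it is scarce, it read 5.89, 6.31 and 4.41 against 2.72, 2.72 and 3.01 (0.97, SE 0.116, adjusted p = 0.000173). Neither pair of groups overlapped, and the difference between the changes was 1.85 on the log2 scale (SE 0.161, adjusted p = 7.06e-05). At 50 nM the changes were -0.76 and 0.78, and their difference 1.54 (SE 0.119, adjusted p = 4.45e-05). COL22A1, a FACIT chain of tissue junctions with 0 counts in every MDA-MB-231 library, read 3.48, 2.59 and 3.16 CPM against 9.46, 9 and 8.02 in U87MG at 200 nM (-1.52, SE 0.157, adjusted p = 8.67e-05) and fell at 50 nM too (-1.30, SE 0.296, adjusted p = 0.0071).

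Of the multiplexins, proteoglycan collagens of basement membrane zones, COL18A1 fell in MDA-MB-231 and COL15A1 in U87MG. COL18A1 in MDA-MB-231 read 182, 178 and 210 CPM against 285, 282 and 294 at 200 nM (-0.60, SE 0.0705, adjusted p = 0.000168) and 86.8, 94.7 and 110 against 144, 136 and 137 at 50 nM (-0.52, SE 0.117, adjusted p = 0.00779). Its exons share 1401 bases with SLC19A1 on the other strand. COL15A1 in U87MG read 20.2, 12.3 and 17 CPM against 33.1, 30.9 and 32.9 at 200 nM (-0.97, SE 0.185, adjusted p = 0.000887) and changed by -0.82 (SE 0.184, adjusted p = 0.00277) at 50 nM, but the difference between lines in the COL15A1 change was not called at either dose (0.66 and 0.32). COL7A1, which ties the basement membrane of skin to the dermis, read 96.7, 74.8 and 88.1 against 153, 127 and 144 in U87MG at 200 nM (-0.71, SE 0.0991, adjusted p = 9.45e-05). It showed log2 changes of 0.08 and -0.02 in MDA-MB-231 at 200 and 50 nM, neither called, and the difference between lines was 0.79 at 200 nM (adjusted p = 0.00211) and 0.45 at 50 nM, where it was not called (adjusted p = 0.0563).

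**Figure D3:**
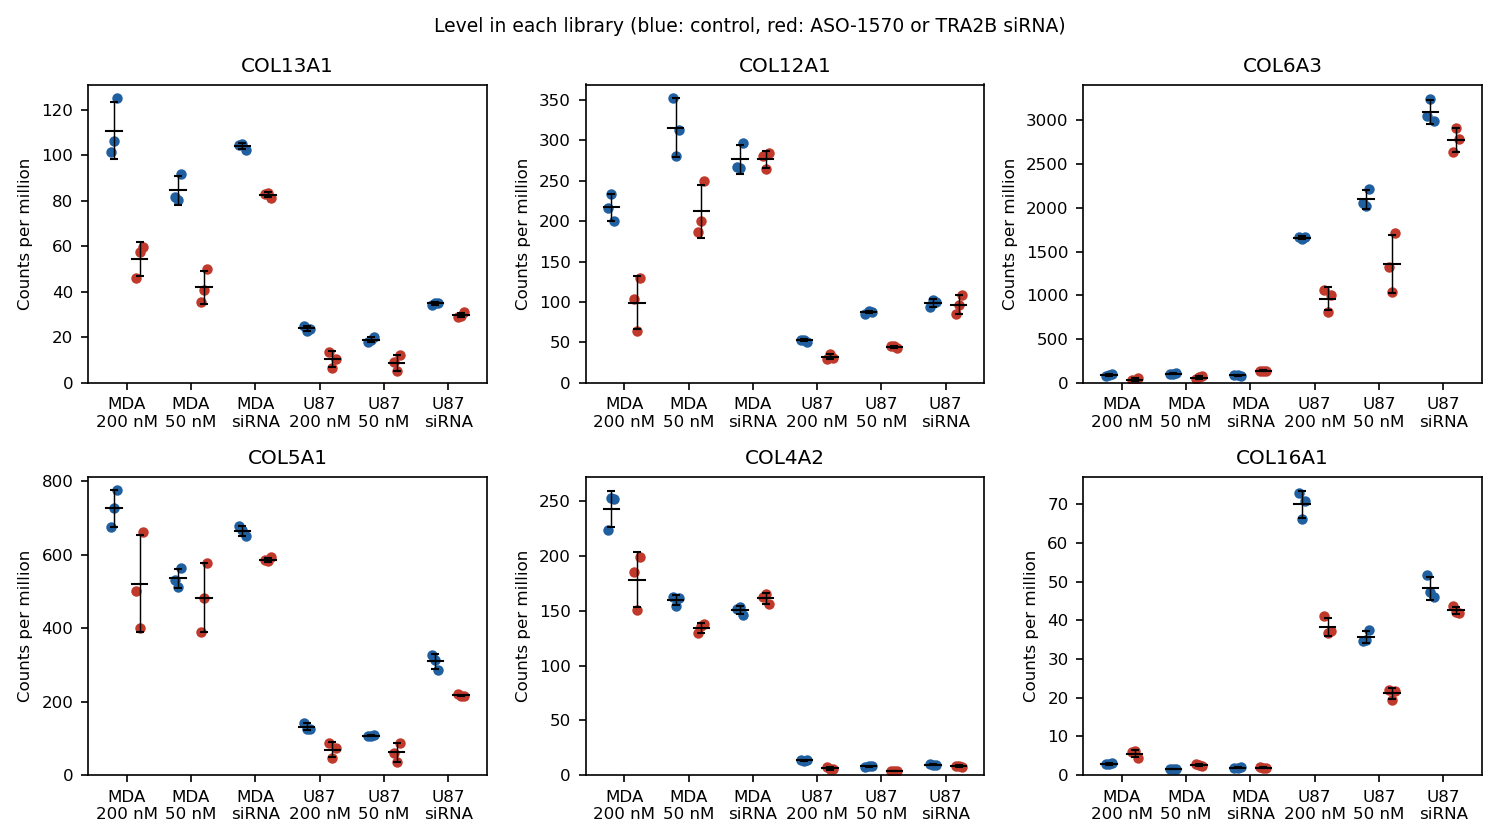
CPM in each of the 3 libraries of every line group for 6 collagen genes, with the mean (long tick) and SD (short ticks); blue is control and red is ASO-1570 or TRA2B siRNA, and each panel has its own linear axis from 0. COL13A1 is lower in red at every position, COL12A1 is lower with the ASO and level with siRNA, and COL16A1 reads 66.2 to 73 CPM in the U87MG controls at 200 nM and 2.72 to 3.01 in those of MDA-MB-231.

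Some chain genes near the floor of detection rose with ASO-1570. COL20A1, a FACIT chain, was called higher in all 4 ASO comparisons, with 0.437, 0.65 and 0.496 CPM against 0.0411, 0.068 and 0.0305 in U87MG at 200 nM (3.50, adjusted p = 3.07e-05) and 0.443, 0.283 and 0.238 against 0.0428, 0.0578 and 0.111 in MDA-MB-231. COL11A2, a chain of cartilage fibrils, read 0.736, 0.875 and 0.983 against 0.126, 0.0884 and 0.112 in U87MG at 200 nM (2.98, adjusted p = 4.13e-06) and 1.38, 1.02 and 0.785 against 0.315, 0.443 and 0.465 in MDA-MB-231 (1.38, adjusted p = 0.00184). COL9A3 read 0.349, 0.62 and 0.486 against 0.164, 0.143 and 0.136 in U87MG (1.71, adjusted p = 0.00109), and COL21A1 read 0.351, 0.346 and 0.403 against 0.0886, 0.0771 and 0.042 in MDA-MB-231 (2.38, adjusted p = 0.000319). All of these stayed at or under about 1 CPM, where the fitted change depends on few reads. In the GENCODE annotation 4 of the 44 members have a protein-coding gene on the same strand ending within 5000 bases upstream. Among them are COL11A2 (RXRB, 1089 bases), COL9A3 (OGFR, 2244 bases) and COL20A1 (ARFGAP1, 3393 bases). For COL21A1 the nearest such gene, DST, ends 63893 bases upstream. Reads from upstream neighbours were not tested for.

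The test of the difference between lines called 9 chain genes at 200 nM in which the change in MDA-MB-231 lay above that in U87MG and 3 in which it lay below (11.5% and 12.1% of all genes), and 9 and 3 at 50 nM (14.3% and 13.9%). COL5A2, at about 1 CPM in MDA-MB-231, differed by 1.13 at 200 nM (SE 0.188, adjusted p = 0.00154) and by 0.96 at 50 nM (SE 0.175). COL6A1 differed by 0.79 (SE 0.129, adjusted p = 0.00137) and COL1A1 by 0.83 (adjusted p = 0.0333). Sums of marker genes differed between treated and control libraries too. The 8 fibroblast markers, which hold no collagen, summed to 21.13 to 26.38 CPM with ASO-1570 against 11.65 to 12.06 in MDA-MB-231 at 200 nM, with 5 of 8 under 1 CPM, and to 88.23 to 114.8 against 113.4 to 124 in U87MG, where 2 of the list were called higher and 3 lower. The 6 glial markers summed to 13.7 to 18.25 against 34.24 to 34.29 in U87MG, with 4 of 6 under 1 CPM, and the 4 mesenchymal markers to 9036 to 10020 against 11620 to 12120, none under 1 CPM. The 5 immune markers summed to 398.4 to 428.1 against 520.9 to 549.8 in U87MG, and to 52.77 to 59.95 against 68.73 to 73.25 in MDA-MB-231. The 4 endothelial markers summed to 9.569 to 11.11 against 15.74 to 16.52 in U87MG, and the 9 breast epithelial markers to 2363 to 3259 against 2022 to 2243 in MDA-MB-231. Their part in the collagen changes was not tested.

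Fewer collagen genes were called with the TRA2B siRNA than with ASO-1570, as were fewer of all genes. In MDA-MB-231 3 of 37 chain genes rose and 3 fell (3.65% and 3.6% of all genes), and in U87MG 2 rose and 4 fell (1.6% and 2.6%). The shares of chain genes were above those of all genes in each case, from small counts. In MDA-MB-231 COL8A1 rose from 77.8, 82.7 and 69.1 CPM to 125, 127 and 120 (0.70, SE 0.0542, adjusted p = 4.81e-05). COL6A3 rose too, from 83.8, 91.8 and 73.9 to 139, 138 and 129 (0.71, SE 0.0774, adjusted p = 0.000334), where with ASO-1570 in the same line it read 35.2, 25.8 and 50.2 against 77.9, 90.1 and 96.9 at 200 nM; the siRNA and ASO experiments stand in separate tables and their difference was not tested. COL15A1 rose by 0.47 (SE 0.0933, adjusted p = 0.0101), from 2.75, 2.31 and 2.96 CPM to 3.67, 3.45 and 4.03. No treated library of these genes overlapped a control library.

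In U87MG with siRNA the fibrillar chains COL5A1 and COL1A1 fell: COL5A1 read 219, 216 and 216 CPM against 326, 314 and 287 (-0.51, SE 0.0435, adjusted p = 0.00018), and COL1A1 read 338, 310 and 346 against 448, 411 and 441 (-0.39, SE 0.0492, adjusted p = 0.0016). COL5A1 in MDA-MB-231 read 585, 582 and 593 against 677, 667 and 650 (-0.18, adjusted p = 0.0261), a call lost in 5 of the 6 fits that left out 1 library (adjusted p up to 0.111; control replicate 3 was the exception). COL7A1 read 47.8, 43.7 and 53.6 CPM against 61.3, 59.2 and 64.7 in MDA-MB-231 (-0.35, adjusted p = 0.0128; 0.0511 without siRNA replicate 2) and 123, 113 and 114 against 156, 148 and 135 in U87MG (-0.33, adjusted p = 0.0256), where the call was lost without control replicate 1 or 2 or siRNA replicate 2 or 3 (0.108, 0.0816, 0.0874 and 0.0777). The X-linked basement membrane chains COL4A5 and COL4A6 rose in U87MG. COL4A5 read 20.1, 20.8 and 21.6 CPM against 15.2, 17 and 17.1 (0.34, adjusted p = 0.013; 0.0574 without control replicate 1), and COL4A6 read 12.1, 12.6 and 12.9 against 10, 10.3 and 10.3 (0.29, adjusted p = 0.0396; 0.0799 to 0.139 when any 1 library was left out).

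Between lines the siRNA change was called different for 5 chain genes, with the MDA-MB-231 change above the U87MG change in all 5 and below it in 0 (0.402% and 0.125% of all genes). COL8A1 differed by 0.70 (SE 0.0762, adjusted p = 0.00374) and COL6A3 by 0.86 (SE 0.108, adjusted p = 0.00808), and both calls held in every alternative run. Those of COL1A1 (0.44, adjusted p = 0.0327), COL5A1 (0.33, adjusted p = 0.0463) and COL15A1 (0.66, adjusted p = 0.0492) did not, so that 2 or 3 of the 5 were left whichever library was left out. Of all 6 line comparisons, 27 of the 44 genes were called in at least 1. COL12A1, COL13A1, COL4A2, COL5A1, COL6A3 and COL7A1 fell in 4 or more of the 6, and COL20A1 rose in 4. The matching shares of all genes were not computed. In U87MG at 200 nM alone, 25.8% of all genes tested were called higher and 23.9% lower.

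Genes that modify and export procollagen were also called with ASO-1570. Of 18 folding and modification genes, 9 fell and 1 rose in MDA-MB-231 at 200 nM, where 13.6% of all genes fell and 11.7% rose, and 11 fell and 2 rose in U87MG, where 23.9% fell and 25.8% rose. Their median log2 change was -0.296 and -0.454 (all genes, 0 and 0.0203). With siRNA 2 fell and 0 rose in each line. P4HA1, the catalytic subunit of prolyl 4-hydroxylase, averaged 104.7 ± 21.1 CPM (SD, n = 3) against 229.3 ± 9.9 at 200 nM in MDA-MB-231 (-1.13, adjusted p = 0.000152), and fell in all 6 line comparisons, by 0.28 and 0.27 on the log2 scale with siRNA. P3H1, a prolyl 3-hydroxylase, averaged 50.25 ± 6.65 against 103.5 ± 2.89 in U87MG at 200 nM (-1.04, adjusted p = 1.83e-06) and fell in all 4 ASO comparisons, as did its partner CRTAP (-0.45 and -0.46 at 200 nM in MDA-MB-231 and U87MG). SERPINH1, the collagen chaperone HSP47, fell in U87MG (-0.70 at 200 nM, adjusted p = 5.07e-05) and was not called in MDA-MB-231 with the ASO. PLOD2, a lysyl hydroxylase, rose in U87MG (0.62, adjusted p = 0.00185). KLHL12, an adaptor in the export of procollagen from the endoplasmic reticulum, changed by -0.75 and -1.34 at 200 nM in MDA-MB-231 and U87MG.

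The counts of the smaller lists stand against the same shares of all genes at 200 nM. Of 8 collagen receptor genes, 3 fell and 2 rose in MDA-MB-231 (median -0.244) and 5 fell and 1 rose in U87MG (median -0.313). ITGB1, the beta subunit of the collagen-binding integrins, averaged 548.8 ± 145 CPM against 1579 ± 54.3 in MDA-MB-231 (-1.52, adjusted p = 6.21e-05) and 602.4 ± 61.7 against 1730 ± 14.4 in U87MG (-1.52), and showed log2 changes of 0.03 and -0.01 with siRNA, neither called. TLL2, a procollagen-processing protease of the tolloid family, averaged 10.17 ± 2.55 CPM against 0.3046 ± 0.02 at 200 nM in MDA-MB-231 (5.06, adjusted p = 4.89e-06), rose in the other 3 ASO comparisons and was not called with siRNA. Of the 5 crosslinking enzymes, LOXL2 fell in all 3 U87MG comparisons (-1.14 at 200 nM, adjusted p = 2.95e-05), and LOX rose in MDA-MB-231 with siRNA (0.96, adjusted p = 0.0103). Of 8 processing genes, 2 rose and 2 fell in each line at 200 nM. Of 5 secretion genes, 3 fell in each line at 200 nM, and of 7 degrading enzymes, 2 fell and 1 rose in MDA-MB-231 and 2 fell and 3 rose in U87MG. Of 11 TGF-beta pathway genes, 4 fell and 1 rose in MDA-MB-231 and 5 fell and 1 rose in U87MG at 200 nM, with the ligand gene TGFB2 called higher in all 6 line comparisons (0.59 and 0.74 at 200 nM).

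Splicing of collagen genes changed in U87MG with ASO-1570. Inclusion was read as the percent spliced in (PSI, given as a fraction), the share of junction reads that keep an exon or splice site, and an event was called at a limma adjusted p under 0.05 and a difference in mean PSI of at least 0.1. At 200 nM 25 of 197 tested collagen events had lower inclusion and 3 higher (14.1% and 5.46% of all events tested), in 10 genes, and at 50 nM 15 of 152 were lower and 2 higher (9.94% and 3.83%), in 9 genes. The shares with lower inclusion lie near the background and those with higher inclusion under it. The 2 doses shared 7 events, 25% of the 28 and 41.2% of the 17, and 12 of the 28 were not tested at 50 nM. The overlap between doses over all events was not computed. Of the 24 events called at either dose and tested at both, 23 had the same sign. With the replicate number as a block, 15 events were called at 200 nM and 0 at 50 nM. Same-numbered libraries were all correlated above 0.1 at 50 nM, and the calls given here come from the fits without the block. Leaving out 1 control library gave 15, 11 and 11 calls at 200 nM (replicates 1, 2 and 3) and 3, 1 and 1 at 50 nM, and leaving out treated replicate 1 or 2 gave 8 and 11 at 50 nM.

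No collagen event was called in MDA-MB-231 at 200 nM (0.394% of all events higher and 1.03% lower) or at 50 nM (0.0766% and 0.122%), where limma gave an unadjusted p under 0.05 for 15 of 173 and 7 of 121 collagen events, and the logit scale called 2 and 1. With siRNA no event of any gene was called in either line (0% higher and 0% lower), and 8 of 160 collagen events in MDA-MB-231 and 8 of 176 in U87MG had an unadjusted p under 0.05. Over both doses in U87MG 38 events in 11 genes were called, 32 of them cassette exons. COL7A1 held 9, COL12A1 held 8 and COL27A1 held 6. Events can overlap and share junctions, so these counts are not counts of separate changes. Several of the COL7A1 events lie within chr3:48570134-48570334. Of these 45 results, 9 kept their call in all 10 alternatives, all at 200 nM: in COL12A1 (3), COL7A1 (3), COL27A1, COL6A1 and COL17A1. The other 36 lost it in at least 1, and none reversed.

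Some of the exons skipped in U87MG hold Gly-X-Y repeats from end to end and others do not, as the sequences show. Below are 6 cassette exons called at both doses in the fits without the replicate block. The COL12A1 exon of 21 bases was called with another upstream exon at each dose. The COL8A1 exon of 170 bases, also called at both doses, had no reading frame assigned and is not printed. Sequences are read 5′ to 3′ along the transcript from the GENCODE v29 transcripts of GRCh38, with coordinates from the deposited event table. Capitals mark glycine codons that recur at every 3rd codon of the reading frame, so that skipping such an exon keeps the frame and the repeat. Exons with no capitals lie outside the helix or hold no such repeat.
COL27A1 exon of 108 bases, chr9:114290810-114290917, plus strand: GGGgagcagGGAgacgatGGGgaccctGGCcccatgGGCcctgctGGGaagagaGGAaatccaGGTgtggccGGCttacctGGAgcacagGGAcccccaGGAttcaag
COL5A2 exon of 99 bases, chr2:189058429-189058527, minus strand: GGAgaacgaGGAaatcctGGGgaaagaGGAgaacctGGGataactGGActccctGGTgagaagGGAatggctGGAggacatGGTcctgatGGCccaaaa
COL6A1 exon of 63 bases, chr21:45994167-45994229, plus strand: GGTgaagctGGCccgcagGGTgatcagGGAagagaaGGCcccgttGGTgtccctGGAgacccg
COL27A1 exon of 66 bases, chr9:114304608-114304673, plus strand: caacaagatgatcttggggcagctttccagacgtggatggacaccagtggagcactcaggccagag
COL12A1 exon of 143 bases, chr6:75146102-75146244, minus strand: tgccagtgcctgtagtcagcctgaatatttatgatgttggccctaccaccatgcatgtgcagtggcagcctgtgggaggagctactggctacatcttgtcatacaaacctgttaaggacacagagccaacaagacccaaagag
COL12A1 exon of 21 bases, chr6:75138320-75138340, minus strand: tgcctatcttaacaacacaag

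The 3 printed exons built of Gly-X-Y repeats were chosen because they were called in U87MG at both doses. All 3 had lower inclusion, and their calls there follow from that choice. Over all called exons coding in 1 frame, 13 had glycine at every 3rd codon. The 45-base COL13A1 exon was among these and was called higher at 200 nM. The COL5A2 exon, with 11 of its 33 codons glycine at the recurring position, read PSI 0.834, 0.639 and 0.782 with ASO-1570 and 1, 0.998 and 1 with control in U87MG at 200 nM (-0.248, SE 0.052, adjusted p = 0.0201), and 0.822, 0.748 and 0.881 against 1 in each control library at 50 nM (-0.183, SE 0.036, adjusted p = 0.0247). The COL6A1 exon, 7 of 21 codons, read 0.886, 0.829 and 0.852 against 0.999 in each control at 200 nM (-0.143, SE 0.019, adjusted p = 0.00497) and changed by -0.125 at 50 nM (SE 0.02, adjusted p = 0.0146). The COL27A1 exon, 12 of 36 codons, read 0.861, 0.797 and 0.912 against 1 in each control at 200 nM (-0.143, SE 0.031, adjusted p = 0.0214) and changed by -0.142 at 50 nM (SE 0.036, adjusted p = 0.0497). Every treated library lay below every control library for all 3. In MDA-MB-231 at 200 nM the COL6A1 exon read 0.949, 0.938 and 0.968 against 1 in each control and was not called.

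The 143-base exon of COL12A1, whose length is no multiple of 3, fell in U87MG at both doses. It read 0.603, 0.533 and 0.47 against 0.99, 1 and 1 in U87MG at 200 nM (-0.461, SE 0.04, adjusted p = 0.00163) and 0.573, 0.436 and 0.693 against 1 in each control at 50 nM (-0.433, SE 0.067, adjusted p = 0.0128). In MDA-MB-231 at 200 nM it read 0.812, 0.817 and 0.93 against 1 in each control, groups that do not overlap with a change that was not called (-0.147, adjusted p = 0.137). With siRNA it stayed between 0.986 and 1 in all 12 libraries. The 21-base COL12A1 exon read 0.397, 0.26 and 0.496 against 0.953, 1 and 1 at 200 nM in U87MG (-0.6, SE 0.064, adjusted p = 0.0027). In that event the upstream exon lies beyond a 133-base neighbour, chr6:75138448-75138580. With the neighbour itself as the upstream exon, the 21-base exon read 0.871, 0.679 and 0.785 against 0.947, 0.86 and 0.879. Those groups overlapped and the event was not called at 200 nM. The 133-base neighbour read 0.818, 0.782 and 0.859 against 0.991, 1 and 1 (-0.177, SE 0.024, adjusted p = 0.00522). COL12A1 RNA itself was lower in the same libraries, at 29.6, 35.7 and 30.8 CPM against 53.5, 52.8 and 51.

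In COL7A1 a 45-base exon at chr3:48570134-48570178 read 0.643, 0.466 and 0.469 against 0.955, 0.959 and 0.969 in U87MG at 200 nM (-0.435, SE 0.055, adjusted p = 0.00434). Between the same flanking exons, the 60-base exon at chr3:48570275-48570334 changed by -0.232 and a 201-base form spanning both by -0.259. These events share a skipping junction. An alternative 3′ splice site event at chr3:48571279-48572045, which spans 767 bases, read 0.735, 0.706 and 0.729 against 0.998, 1 and 0.987 (-0.272, SE 0.021, adjusted p = 0.00119). It shares its skipping junction with a cassette event of a 45-base exon at chr3:48572001-48572045, which read 0.89, 0.844 and 0.871 against 0.999, 1 and 0.995. These are therefore not separate changes, and a PSI near 1 need not mean that all 767 bases were kept. In each of these COL7A1 events the treated libraries lay below all controls. The COL27A1 exon of 66 bases read 0.843, 0.852 and 0.918 against 1 in each control (-0.129, SE 0.023, adjusted p = 0.0128). A 69-base exon of COL17A1, the hemidesmosome collagen, at chr10:104061405-104061473, gave -0.62 (SE 0.073, adjusted p = 0.00353) in a gene at about 0.67 CPM, so from few reads. COL8A1, with a 170-base exon at chr3:99691399-99691568, read 0.485, 0.399 and 0.395 against 0.543, 0.681 and 0.642 (-0.196, SE 0.046, adjusted p = 0.0289). Gains were fewer: a 603-base exon of COL6A3 at chr2:237387582-237388184 rose from 0.507, 0.504 and 0.5 to 0.591, 0.659 and 0.605 (0.115, SE 0.027, adjusted p = 0.0272). The same event read 0.646, 0.701 and 0.721 against 0.877, 0.846 and 0.824 in the breast line at the higher dose (-0.16, adjusted p = 0.126), and 0.266, 0.263 and 0.28 against 0.364, 0.332 and 0.335 in U87MG with siRNA (-0.074, adjusted p = 0.702); neither was called, and neither pair of groups overlapped. A 45-base COL13A1 exon at chr10:69932560-69932604 rose from 0.937, 0.827 and 0.839 to 1 in each treated library (0.132, SE 0.032, adjusted p = 0.0298). Read with other flanking exons, that COL13A1 exon gave differences of -0.086 and -0.121 in U87MG at 200 nM, neither called, and 1 of these events read 0.365, 0.427 and 0.45 against 0.627, 0.673 and 0.591 in MDA-MB-231 (-0.216, adjusted p = 0.0575).

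**Figure D4:**
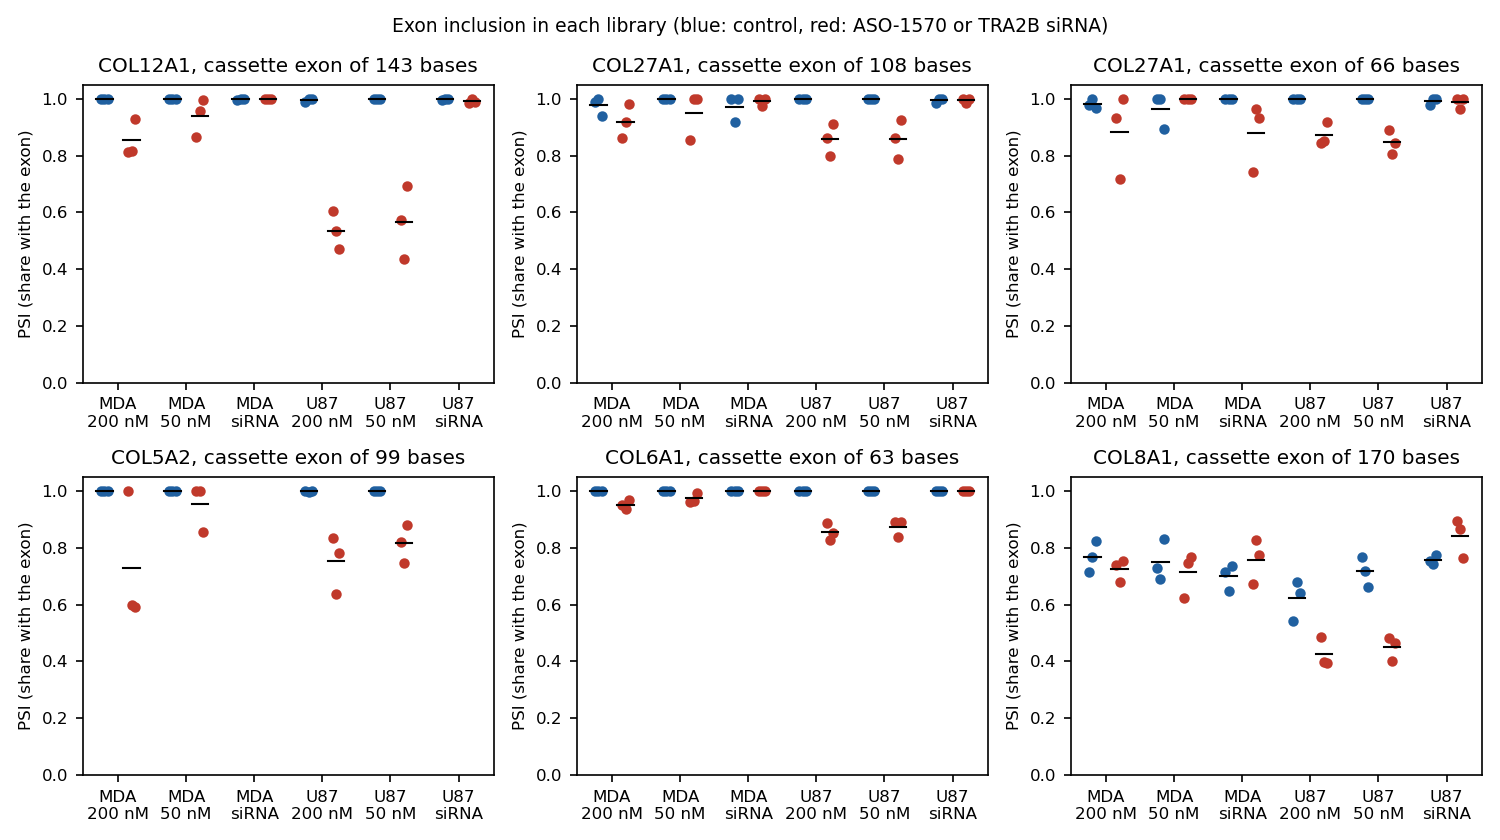
PSI of 6 cassette exons in each library of the line groups, blue for control and red for ASO-1570 or TRA2B siRNA, with a line at the mean. The exons are those of COL12A1 (143 bases), COL27A1 (108 and 66 bases), COL5A2 (99 bases), COL6A1 (63 bases) and COL8A1 (170 bases). The 21-base COL12A1 exon is not shown. The axis starts at 0, and a group with no points has no value in any library. Red points of the COL12A1 exon of 143 bases sit between 0.436 and 0.693 in U87MG with ASO-1570, while blue points stay at 0.99 or above in the same experiments.

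Over the 30 cassette exons called in U87MG, 23 (76.7%) had a length that is a multiple of 3 and 13 (43.3%) a multiple of 9, with a median of 67.5 bases. Among the 134 collagen cassette exons tested these shares were 85.8% and 56.7%, and over all 41582 cassette exons tested 39.6% and 13.2%, with a median of 117 bases, so the called collagen exons share the short, repeat-sized build of collagen exons in general. Of the 25 that are annotated and coding in 1 frame, 13 had glycine at every 3rd codon. The 4-base motif AGAA, searched on the transcript strand with overlapping matches counted, was in 12 of the 25 (48%), and in 59.5% of 76587 annotated cassette exons of all lengths. Its reverse complement TTCT was in 7 of the 25, and in 44.5% of all. The COL5A2 exon above holds AGAA 3 times, where 55% of 644 annotated exons of its length hold it, and the COL6A1 exon holds it once (44.8% of 469). The COL12A1 exon of 143 bases holds none, where 64.9% of 365 exons of its length hold it, and the COL27A1 exons and the 21-base exon hold none either.

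In the breast tumour xenografts the leading collagen was one scarce in both lines. COL9A3, a FACIT chain of cartilage type IX, took 55.4% of the summed collagen CPM per kb under control ASO, and read 177, 309, 340, 276 and 328 CPM in the treated tumours against 172, 220, 234, 199 and 297 in the controls (0.35, adjusted p = 0.507). No chain gene was called among the 33 tested (0% of all genes higher and 0% lower), as no gene of any kind was by edgeR; 2 members, COL1A1 and COL18A1, and 2053 genes in all had an unadjusted p under 0.05, and DESeq2 called 0 members. COL1A1 read 8.31, 19.9, 33.9, 19 and 31.1 CPM against 6.74, 17, 14.9, 12.5 and 10.6 (0.86, adjusted p = 0.487), and the groups overlapped. COL27A1 read 34.8, 75.6, 217, 156 and 83.2 against 26.8, 37.2, 87.4, 43.8 and 81.9 (1.03, adjusted p = 0.487), and the groups overlapped.

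The xenograft directions changed with the scaling for several chains, in a fit on library totals chosen after seeing the data. As plain counts per 1000000 counts of the library, COL9A3 read 250, 382, 206, 121 and 215 in treated tumours against 250, 261, 340, 282 and 273 in controls, with a log2 change of -0.26 in place of 0.35, and COL27A1 read 49.2, 93.5, 131, 68 and 54.6 against 39, 44.1, 127, 62 and 75.3, with a change of 0.19. COL1A1 then changed by 0.11. The median change of all genes on that scale was -0.54, against 0.00526. No chain gene was called on either scale, and COL7A1, COL9A2 and COL16A1, like COL9A3, changed sign between them.

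COL12A1, lower with ASO-1570 in both lines, read 73.7, 86.2, 54.7, 68.7 and 47.9 CPM in treated tumours and 60.9, 54.8, 88.3, 84.9 and 73.8 in controls (-0.13, and -0.62 on plain library totals). COL13A1 showed a log2 change of 0.12, and of -0.57 on plain totals. Neither was called, in tumours whose TRA2B RNA did not differ by the test. None of 131 tested collagen events was called in the xenografts (0% higher and 0% lower of all events), and 5 had an unadjusted p under 0.05 by limma, against 2769 of all. Breast epithelial markers summed to 1254 to 2822 CPM in treated and 1565 to 3179 in control tumours, the 8 fibroblast markers to 0.7207 to 1.150 and 0.2172 to 1.805, with POSTN at 0 and all 8 under 1 CPM, so these human-aligned counts hold almost no fibroblast marker signal. Reads of the mouse host were not analysed here.

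**Figure D5:**
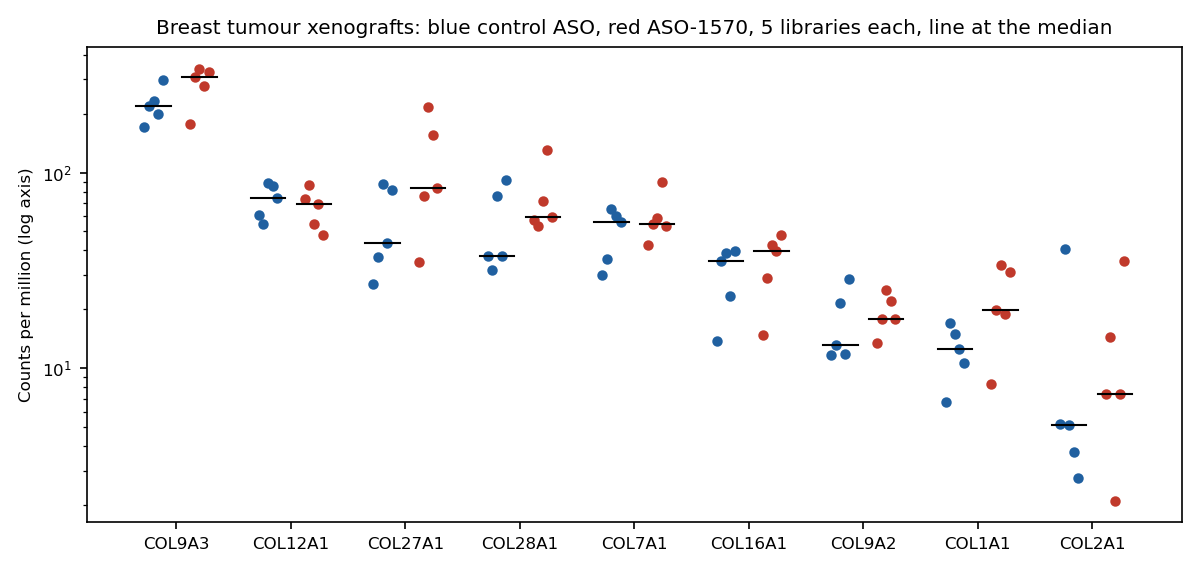
CPM on a log axis of 9 collagen genes in each of the 5 control (blue) and 5 ASO-1570 (red) xenograft libraries, with a line at the median and CPM on the TMM-normalised scale. The groups overlap for every gene; COL9A3 is the highest, at 172 to 340 CPM, and COL27A1 spans 26.8 to 217.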

How the data were processed

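RNA was sequenced from 46 samples in 14 groups of 4 experiments, as stranded mRNA libraries with paired reads of 151 bases, per the labels' protocols. The deposited count tables hold raw gene counts; the submitters' processing notes name FastQC, MultiQC, Trimmomatic, STAR, StringTie and the GRCh38 (hg38) build, with no versions, and whether the counting used strand is not given in the sources used here. The deposited splicing tables hold PSI values as a fraction from 0 to 1 for each library, made with rMATS per the labels, with no read counts, so the depth behind a PSI value is unknown. The members, classes and pathway lists were chosen with earlier results of these data known. Members were matched by symbol, and gene positions, lengths and exon sequences came from GENCODE v29 (GRCh38).

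Counts were tested in R 4.3.3 with edgeR 4.0.16 (filterByExpr, TMM, quasi-likelihood test, all groups of a table in 1 fit), with Benjamini-Hochberg adjustment over all genes tested and calls at 0.05. PSI was tested with limma 3.58.1 between 2 groups, over events that had a PSI in all libraries and spanned at least 0.05; a call also needed a difference of 0.1. The scripts were tested on simulated data. Exact permutation of 3 against 3 libraries cannot go below p = 0.1 (0.00794 for 5 against 5), so no test of single values is given. CPM are counts per 1000000 counts of the library size after TMM normalisation, and collagen and mitochondrial shares are of plain library totals. Members were named by rule: those called with a mean of at least 10 CPM and the largest changes, those called the same way in 4 or more line comparisons, those with the smallest p for a difference between lines, every called collagen event, and pathway genes with the smallest p. Low members and some values that no rule names were added after their values were seen.

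Alternatives were DESeq2 1.42.0, RLE size factors, no filter on low counts, 2-group fits, mitochondrial genes removed, the logit of PSI, other PSI limits, each library left out, and the replicate number as a block. Leaving out xenograft libraries with over 50% mitochondrial counts, and fitting the xenografts on library totals with no normalisation factors, were added after seeing the data. Replicate numbers were checked for pairing by the correlation of deviations from group means. All 3 were above 0.1 in U87MG at 50 nM (0.255, 0.123 and 0.376) and with siRNA (0.322, 0.112 and 0.191), and not in the other comparisons. For treated replicate 2 at 50 nM and replicate 3 with siRNA, the best-correlated control library carried another number. The labels state no pairing. The main fits hold no block, so the p-values and calls given for these comparisons come from unpaired tests unless the block is named.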

Additional observations from a re-analysis of the deposited data

Results flagged for a closer look

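The change with ASO-1570 at 200 nM differed between the lines, by the test of the difference itself (MDA-MB-231 minus U87MG, log2, edgeR), for COL21A1 (2.6131), COL16A1 (1.8454), COL18A1 (-1.6655), COL5A2 (1.1281) and COL6A1 (0.78641). At 50 nM it differed for COL16A1 (1.5421), COL5A2 (0.95923), COL4A2 (0.89378), COL17A1 (-0.81132) and COL9A3 (-3.3526). Of these genes COL21A1, COL9A3, COL17A1 in U87MG, COL5A2 in MDA-MB-231 and COL18A1 in U87MG were at or under about 1 CPM. With siRNA the change differed for COL6A3 (0.86408), COL8A1 (0.70134), COL15A1 (0.65931), COL1A1 (0.44343) and COL5A1 (0.32867).

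In the xenografts 1 library stood far from the other 4 of its group for 2 of the genes. COL28A1, a beaded filament chain, was at 130.106 CPM in ASO-1570 replicate 4, where the group median was 59.0437; as plain counts per 1000000 that library read 56.8 against 38.8 to 81.3 in the others, so it stands apart only on the TMM-normalised scale. COL2A1, the fibrillar chain of cartilage, was at 40.6113 CPM in control replicate 2, where the median was 5.13956, and at 48.2 against 2.54 to 7.56 on plain totals. Of 18 groups of values tested this way, chance would flag about 1 in 20.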

How the results depend on the processing

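Of 55 single-gene results, 45 kept their direction and call in every alternative, 10 lost the call in at least 1 and 0 reversed; of 45 splicing results, 9 kept it, 36 lost it and 0 reversed. The calls on collagen genes over the fits that left out 1 library ranged from 10 to 13 in MDA-MB-231 and from 17 to 22 in U87MG at 200 nM, from 8 to 10 and from 15 to 23 at 50 nM, and from 4 to 6 and from 3 to 5 with siRNA (3 without U87MG control replicate 1), against 11, 21, 11, 17, 6 and 6 with all libraries. The calls on the difference between lines ranged from 10 to 15 at 200 nM, from 7 to 14 at 50 nM (7 without MDA-MB-231 ASO-1570 replicate 3) and from 2 to 3 with siRNA, against 12, 12 and 5. Between control lines they ranged from 32 to 34, 33 to 34 and 34 to 36. DESeq2 called 10 genes in U87MG with siRNA, and without the filter on low counts 2 genes differed between lines with siRNA.

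With the replicate block, 19 genes were called in U87MG at 50 nM and 7 with siRNA, and for splicing in U87MG 15 events at 200 nM and 0 at 50 nM, against 28 and 17; the difference between lines with siRNA for COL5A1 had an adjusted p of 0.054. The labels state no pairing. Where same-numbered libraries were all correlated above 0.1, the block changed no other call of a named gene. In the other comparisons the correlations were not all above 0.1. At 200 nM they were -0.124, -0.708 and -0.448 in MDA-MB-231 and 0.14, 0.185 and 0.0423 in U87MG. The logit scale gave 2 and 1 splicing calls in MDA-MB-231 at 200 and 50 nM, against 0. Without a minimum range, 11 events were called in U87MG at 50 nM. Leaving out 1 library gave 0 to 1 splicing calls in MDA-MB-231 at 200 nM, 11 to 34 in U87MG at 200 nM and 1 to 24 at 50 nM. The cause of these changes was not tested. In the xenografts every alternative gave 0 collagen calls, also without the libraries over 50% mitochondrial counts and on library totals with no normalisation factors, an alternative chosen after seeing the data, though the direction of COL9A3 changed with the latter. PSI values carry no read depth, so events of scarce genes may rest on few reads.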

Other observations

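Of the 7 collagen-degrading genes, 2 fell and 1 rose in MDA-MB-231 and 2 fell and 3 rose in U87MG at 200 nM, with medians of -0.475 and -0.0373, and 3 single genes are given here, chosen after their values were seen. MMP1, interstitial collagenase, changed by -1.43 in MDA-MB-231 at 200 nM, by -1.96 at 50 nM and by -0.63 in U87MG at 200 nM, all called by edgeR, and by -0.28 in U87MG at 50 nM, which was not. MMP14, a membrane-bound collagenase, fell in all 4 ASO comparisons (-0.70 and -0.66 in MDA-MB-231 and -0.50 and -0.34 in U87MG at 200 and 50 nM) and was not called with siRNA. DDR2, a receptor kinase for fibrillar collagen, was called higher in MDA-MB-231 at both ASO doses and with siRNA (0.30, 0.43 and 0.79) and lower in U87MG at both doses (-0.24 and -0.49).

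In the lines, the genes that end within 5000 bases upstream of COL11A2, COL20A1 and COL9A3 on the same strand had much higher levels than those collagens. COL21A1, scarce too, has no such neighbour, as DST ends 63893 bases upstream of it. In U87MG at 200 nM RXRB, upstream of COL11A2, averaged 35.7 CPM with ASO-1570 and 25.0 with control, ARFGAP1, upstream of COL20A1, 67.8 and 99.2, and OGFR, upstream of COL9A3, 60.4 and 74.7. COL17A1 in U87MG at 50 nM read 0.68, 0.693 and 0.649 CPM against 0.461, 0.471 and 0.377 (0.63, SE 0.123, adjusted p = 0.00109), with no overlap of the groups.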
